A study of Homo sapiens with 18 samples.

Results

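Veliparib, an inhibitor of the poly(ADP-ribose) polymerases PARP1 and PARP2, was compared with its solvent DMSO in LNCaP, a human prostate cancer line whose growth responds to androgen and whose genes mark it as luminal. The comparison rests on 4 of the series' 18 RNA sequencing libraries, 2 with veliparib and 2 with DMSO, and on the 13337 of 21391 genes in the table whose mean over the inhibitor libraries was at least 1 CPM (reads of a gene scaled to a common library total). Cells grew in RPMI medium with fetal bovine serum and received 10 uM veliparib, 10 uM olaparib, 10 uM UPF1069 or DMSO for 24 h. Olaparib is a second inhibitor of PARP1 and PARP2, and UPF1069 is known as an inhibitor that prefers PARP2; their libraries served for the spread and for direct comparisons. The series calls the 2 libraries of a group biological duplicates, and no label says that they came from separate cultures. P-values therefore measure the spread between libraries of 1 cell line, pooled over the 4 groups, which may be technical.

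PARP1 and PARP2 bind DNA breaks and attach chains of ADP-ribose, made from NAD, to themselves and to chromatin proteins. Inhibitors occupy the nicotinamide pocket of both enzymes and hold them on DNA, and veliparib is known as a weak trapper of the enzymes beside olaparib. Veliparib is a benzimidazole carboxamide, olaparib a phthalazinone and UPF1069 an isoquinolinone. Several gene programs described below have a known master regulator. Hypoxia-inducible factor (HIF) drives genes for glucose uptake, glycolysis and collagen modification, ATF4 drives genes for amino acid supply in the integrated stress response, NRF2 drives antioxidant and iron-storage genes, and p53 drives cell cycle arrest and death genes.

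The libraries held 27.73 and 26.43 M reads with veliparib and 28.96 and 34.32 M with DMSO, so that 3 reads correspond to 0.0882 to 0.113 CPM in these 4 libraries. In the limma fit on log2(CPM + 1), 2291 genes were higher (17.2%) and 3096 lower (23.2%) with veliparib at a Benjamini-Hochberg adjusted p below 0.05. The differences were small: the median absolute log2 fold change of called genes was 0.25, and 83 of the higher and 254 of the lower genes passed 0.5. Without DMSO replicate 1, the count of higher genes was 1269. The veliparib libraries differed from each other more than those of the other groups did. The chi-square per gene between replicates was 6.38, against 2.15 for olaparib, 1.31 for UPF1069 and 1.66 for DMSO, where 1 is counting noise. The fit pools the spread over the 4 groups, so that of veliparib may be understated. In a limma fit of the veliparib and DMSO libraries alone, 1700 genes were higher and 2623 lower.

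The veliparib differences followed the GC content of transcripts. Across 13075 genes with a value, which are not independent replicates, Spearman's rho between GC content and the difference from the DMSO mean was -0.758 and -0.527 in the veliparib libraries, against -0.0993 and -0.132 with olaparib and 0.108 and 0.0961 with UPF1069. Of the genes in the highest GC decile (61.5 to 83.9%), 79.7% were lower with veliparib, and of those in the lowest (26.5 to 38.4%), 37.8% were higher. A second fit therefore removed a smooth trend over GC content and transcript length from each library. It called 969 genes higher (7.41%) and 2210 lower (16.9%) of 13075, with a median absolute log2 fold change of 0.18. List counts below are to be read beside these shares, and beside 17.2% higher and 23.2% lower uncorrected. Both fits called 1995 genes with the same sign, 679 higher and 1316 lower, which is 37% of the uncorrected and 62.8% of the corrected calls. In contrast, 27 genes changed sign from higher to lower and 34 from lower to higher. Whether the trend arose in the cells or in the libraries was not tested, and a compound effect that itself followed GC content cannot be told apart from it. Values below are given from both fits, as the uncorrected and the corrected log2 fold change of veliparib over DMSO; "fell" and "rose" refer to calls, and "in both fits" to calls of the same sign in each.

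**Figure D1:**
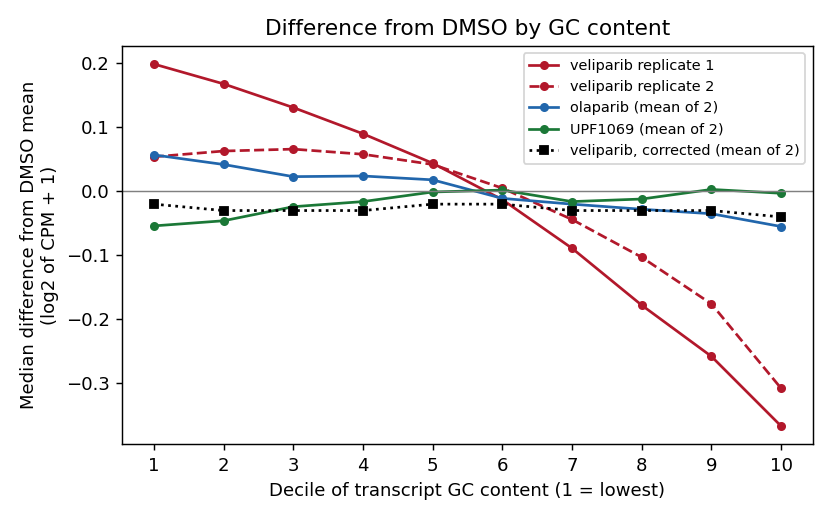
Median difference from the DMSO mean on the log2(CPM + 1) scale (vertical axis) over 10 groups of genes ordered by transcript GC content (horizontal axis). Lines show each veliparib library, the means of olaparib and of UPF1069, and veliparib after correction. Both veliparib libraries fall to -0.37 and -0.31 in the highest decile, while the other compounds stay within 0.06 of 0 and the corrected veliparib values lie between -0.02 and -0.04.

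The luminal identity of LNCaP was visible in all 4 libraries. All 16 luminal markers listed were above the filter, and their summed level was 6876 to 6920 CPM with veliparib against 7143 to 7259 CPM with DMSO. Markers of other cell types were low: the sums were 19.86 to 22.42 CPM with veliparib against 23.41 to 24.03 CPM with DMSO for fibroblast and muscle genes, and 9.254 to 10.19 CPM against 11.21 to 12.07 CPM for immune and endothelial genes. Basal markers summed to 49.59 to 50.09 CPM with veliparib and 49.48 to 49.59 CPM with DMSO, and neuroendocrine markers to 24.4 to 25.66 CPM with veliparib and 29.74 to 31.35 CPM with DMSO. Of these 4 lists, 6 of 13, 8 of 15, 3 of 10 and 7 of 12 markers were at 0 or not listed. In bulk RNA, fewer cells of a type and less RNA per cell cannot be told apart.

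The largest fall of any protein-coding gene was in NDUFA4L2, a mitochondrial protein that HIF induces and that lowers complex I activity in hypoxia. It had 21.6 and 21.7 CPM with veliparib, against 56.5 and 54.9 CPM with DMSO. The groups were far apart and the replicates close together (log2 fold change -1.32, SE 0.05, limma adjusted p = 1.91e-13; -1.02 corrected). NDUFA4L2 and the pseudogene UQCRFS1P1, at 1.43 and 0.868 CPM with veliparib and 3.42 and 3.41 CPM with DMSO, were the only genes lower by over 1 on the log2 scale in both fits.

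Other HIF targets fell with it. Of 34 tested HIF targets, 19 fell without correction and 25 with it, 17 of them in both fits, and the median log2 fold change was -0.21 uncorrected and -0.26 corrected, against -0.00 and -0.03 over all genes. Limma called 0 members higher in either fit, 0 also at an unadjusted p under 0.05, and edgeR and DESeq2 called 0 as well. The median GC content of the list was 49.8%, near the 48.1% of all genes. Without the 4 members shared with the stress response list (VEGFA, STC2, DDIT4 and VLDLR), 15 of 30 fell uncorrected and 21 corrected. CA9, ANGPTL4 and SLC2A3, known HIF targets too, stayed below a mean of 1 CPM and were not tested. The members that fell cover several arms of the program, shown next by role.

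PLOD2, a lysyl hydroxylase of collagen, had 7.93 and 7.96 CPM with veliparib, against 12.9 and 13.3 CPM with DMSO (log2 fold change -0.65, SE 0.09, limma adjusted p = 4.79e-06). With a GC content of 34.4% it lies where veliparib libraries ran high, and correction took its value to -0.77. ANKRD37, an ankyrin repeat protein induced by HIF, likewise fell by 0.50 uncorrected and by 0.62 corrected on the log2 scale, at a GC content of 42.1%. P4HA1, a subunit of the collagen prolyl hydroxylase, fell by 0.23 and 0.34.

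DDIT4 (REDD1), an inhibitor of mTORC1 signalling, had 95.9 and 107 CPM with veliparib, against 164 and 158 CPM with DMSO (-0.67 uncorrected, -0.51 corrected). NDRG1, a stress- and androgen-responsive gene, had 184 and 190 CPM with veliparib, against 256 and 255 CPM with DMSO (-0.45 and -0.41). VEGFA, the angiogenic growth factor, had 73.9 and 71.9 CPM with veliparib, against 94.9 and 90.7 CPM with DMSO (-0.34 and -0.39). In each of these genes both veliparib libraries lay below both DMSO libraries. Here and below, such an order describes the named genes only and was not counted over all genes. BNIP3, a mitophagy receptor, fell by 0.29 uncorrected and by 0.25 corrected.

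The HIF prolyl hydroxylases, which mark HIF for degradation and are themselves HIF targets, were lower too. EGLN3 had 17 and 15.3 CPM with veliparib and 21.3 and 21.9 CPM with DMSO, and fell by 0.40 in both fits. EGLN1 had 83.3 and 72.0 CPM with veliparib and 89.8 and 90.3 CPM with DMSO (-0.21 uncorrected, -0.36 corrected). Some AT-rich members were called only after correction. PDK1, which blocks pyruvate entry into mitochondria, had 72.1 and 62.5 CPM with veliparib and 70.7 and 70.4 CPM with DMSO; its groups overlap, and its log2 fold change was -0.07 uncorrected (-0.17 and called without veliparib replicate 1) and -0.34 corrected. The histone demethylase KDM3A stood at 0.00 uncorrected and -0.18 corrected, and was called only after correction.

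The sequences below show promoters of DDIT4 and PLOD2, members that fell in both fits and hold the core of the HIF binding site. They run from 250 bases before to 50 after the transcription start, in RefSeq's GRCh38.p14, with ACGTG (or its reverse complement CACGT) in capitals. DDIT4 lies at chr10:72273674-72273973 on the plus strand, with the match at -125, and PLOD2 at chr3:146161135-146161434 on the minus strand, with 2 matches.
DDIT4: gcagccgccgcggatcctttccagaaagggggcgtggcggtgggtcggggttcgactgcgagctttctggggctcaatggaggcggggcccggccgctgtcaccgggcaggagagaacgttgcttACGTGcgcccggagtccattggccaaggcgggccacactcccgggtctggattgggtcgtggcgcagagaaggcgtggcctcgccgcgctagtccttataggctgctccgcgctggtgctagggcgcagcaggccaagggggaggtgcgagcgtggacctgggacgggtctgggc
PLOD2: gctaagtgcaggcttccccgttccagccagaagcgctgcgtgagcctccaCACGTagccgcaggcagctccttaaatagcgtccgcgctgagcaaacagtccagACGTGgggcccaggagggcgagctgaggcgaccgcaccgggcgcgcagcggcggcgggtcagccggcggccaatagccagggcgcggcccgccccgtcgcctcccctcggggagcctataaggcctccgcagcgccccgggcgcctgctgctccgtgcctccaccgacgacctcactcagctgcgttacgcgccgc
On either strand, ACGTG was present in 21.4% of all 35116 promoter windows of this length, and in a promoter of 24.9% of 27305 genes. Among the 34 tested HIF targets, 29 had a promoter in the table and 19 of these (65.5%) held the motif. Of the 17 that fell in both fits, 14 had a promoter and 9 held it. A match describes these letters only, and HIF binding was not measured.

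Glycolysis genes overlapped with this program and were lower as well. Of 25 tested enzymes and transporters, 17 fell uncorrected and 18 corrected, 15 in both fits (median -0.19 and -0.13). Limma called 0 members higher uncorrected and 1 corrected, and edgeR and DESeq2 called 1 each. The list's median GC content was 53.3%, above that of all genes. Of the 26 listed, 6 are also HIF targets. At the entry of glucose, the transporter SLC2A1 had 71.2 and 75.1 CPM with veliparib, against 99.0 and 98.8 CPM with DMSO (-0.43 and -0.34). The bifunctional enzyme PFKFB4, which sets the level of the activator of phosphofructokinase, had 21.8 and 22.8 CPM with veliparib, against 31.7 and 32.0 CPM with DMSO (-0.50 and -0.37).

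Further down the pathway, the aldolase ALDOA had 1128 and 1245 CPM with veliparib, against 1637 and 1619 CPM with DMSO (-0.46 and -0.37). PGK1, a phosphoglycerate kinase, had 1066 and 1101 CPM with veliparib, against 1281 and 1309 CPM with DMSO (-0.26 and -0.37). The lactate exporter SLC16A3 had 25.4 and 33.1 CPM with veliparib, against 46.4 and 44.9 CPM with DMSO (-0.64 and -0.39). All 3 were lower in both veliparib libraries. Lactate dehydrogenase LDHA, at 1443 and 1416 CPM with veliparib and 1490 and 1532 CPM with DMSO, was called only after correction (-0.08 and -0.16). GAPDH, at 2484 and 2855 CPM with veliparib and 2971 and 2996 CPM with DMSO, was called only without it (-0.16 and 0.01). The uncorrected GAPDH call also ended without DMSO replicate 2 (adjusted p = 0.0634) or veliparib replicate 1 (0.0695), with DESeq2 (0.144) and in a fit of the veliparib and DMSO libraries alone (0.0517), whereas LDHA was called without either veliparib library (adjusted p = 0.00523 and 0.0453).

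**Figure D2:**
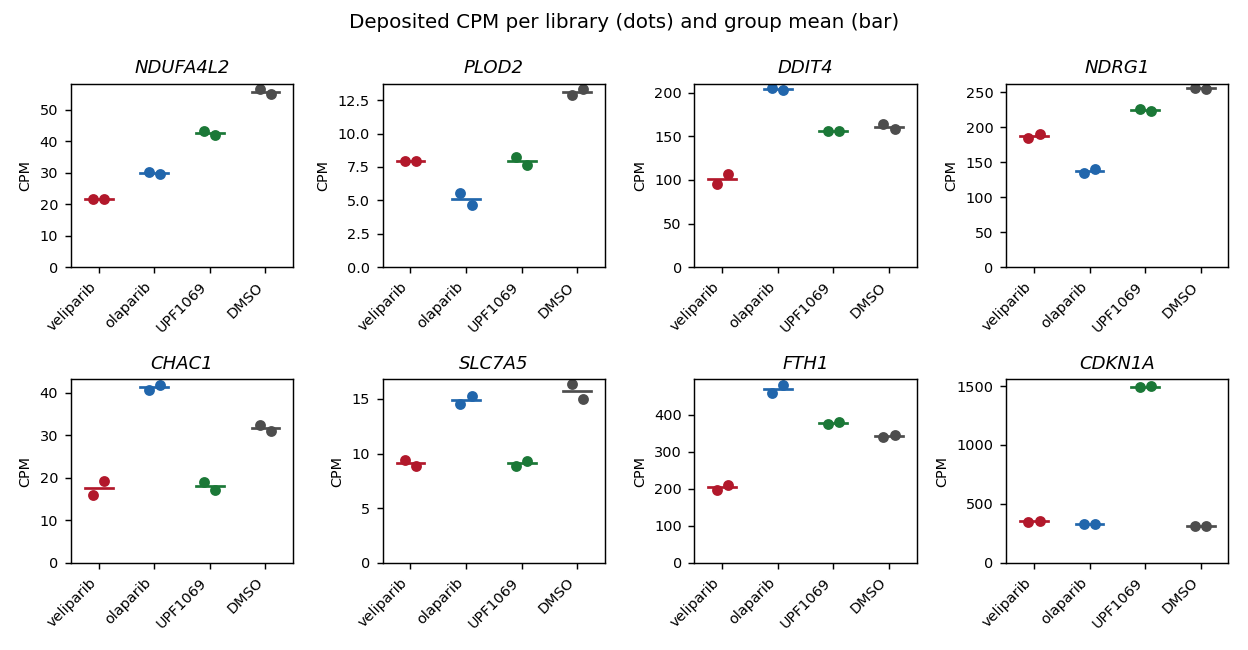
Deposited CPM (vertical axes, starting at 0) of 8 genes in each library, as dots, with the group mean as a bar, for veliparib, olaparib, UPF1069 and DMSO from left to right. NDUFA4L2, DDIT4 and FTH1 were lowest with veliparib, PLOD2 and NDRG1 lowest with olaparib, CHAC1 and SLC7A5 were low with veliparib and UPF1069, and CDKN1A was high with UPF1069.

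Most genes of the integrated stress response were lower with veliparib. Of 39 tested members, 32 fell uncorrected and 33 corrected, 30 in both fits, with medians of -0.26 and -0.22; ALDH1L2 and FGF21 were too low to test. Limma called 0 members higher in either fit, 0 at an unadjusted p under 0.05, DESeq2 called 0 and edgeR 1. The list's median GC content was 52.7%, above that of all genes.

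ATF4, the transcription factor at the centre of this response, had 418 and 442 CPM with veliparib, against 518 and 530 CPM with DMSO (-0.29 uncorrected, -0.15 corrected). Its partners fell with it: CEBPB by 0.73 and 0.36 and JDP2 by 0.46 in both fits. DDIT3 (CHOP), at 16.7 and 18.3 CPM with veliparib and 20.1 and 20.7 CPM with DMSO, fell by 0.21 and 0.24; its uncorrected adjusted p was 0.0975 without DMSO replicate 2, 0.0903 without veliparib replicate 1 and 0.0833 with DESeq2 on recovered reads.

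CHAC1, which degrades glutathione and is among the most responsive ATF4 targets, had 16 and 19.3 CPM with veliparib, against 32.4 and 31.0 CPM with DMSO (log2 fold change -0.82, SE 0.07, limma adjusted p = 1.69e-08; -0.55 corrected). The leucine transporter SLC7A5 had 9.40 and 8.83 CPM with veliparib, against 16.4 and 15 CPM with DMSO (-0.72 and -0.51). The glutamine transporter SLC1A5 had 145 and 150 CPM with veliparib, against 202 and 206 CPM with DMSO (-0.47 and -0.22). None of these groups overlapped, which for CHAC1 was required by its choice among the largest falls. The glycine transporter SLC6A9 fell by 0.58 and 0.38, and SLC3A2, the partner chain of SLC7A5, by 0.26 and 0.11.

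The translation repressor EIF4EBP1 had 127 and 128 CPM with veliparib, against 192 and 193 CPM with DMSO (-0.59 and -0.28). The pseudokinase TRIB3 fell by 0.47 and 0.24. Asparagine synthetase ASNS had 239 and 233 CPM with veliparib and 255 and 270 CPM with DMSO (-0.15 and -0.19); its uncorrected call ended without DMSO replicate 2 (adjusted p = 0.118). The cystine transporter SLC7A11, a target of both ATF4 and NRF2, was called after correction (-0.07 and -0.29), and uncorrected only without veliparib replicate 1 (-0.14).

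The serine synthesis enzymes moved with these genes. PHGDH, which commits glycolytic carbon to serine, had 541 and 587 CPM with veliparib, against 722 and 715 CPM with DMSO (-0.35 and -0.30). PSAT1, the next enzyme, had 354 and 333 CPM with veliparib, against 406 and 414 CPM with DMSO (-0.26 and -0.35). The mitochondrial folate enzyme SHMT2 fell by 0.25 and 0.11. Of 19 serine and one-carbon enzymes tested, 8 fell and 2 rose uncorrected, and 7 fell corrected; 3 of the 14 that are not also stress response genes fell uncorrected, and 2 rose.

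The sequences below show promoters of CHAC1 and SLC1A5, members that fell in both fits. Both hold a match to the composite C/EBP-ATF element, which ATF4 dimers are known to bind. The windows are those described for DDIT4, from RefSeq's GRCh38.p14, with TGATGNAA (or its reverse complement TTNCATCA) in capitals. CHAC1 lies at chr15:40953221-40953520 on the plus strand, with the match at -209, and SLC1A5 at chr19:46784765-46785064 on the minus strand, with the match at -97.
CHAC1: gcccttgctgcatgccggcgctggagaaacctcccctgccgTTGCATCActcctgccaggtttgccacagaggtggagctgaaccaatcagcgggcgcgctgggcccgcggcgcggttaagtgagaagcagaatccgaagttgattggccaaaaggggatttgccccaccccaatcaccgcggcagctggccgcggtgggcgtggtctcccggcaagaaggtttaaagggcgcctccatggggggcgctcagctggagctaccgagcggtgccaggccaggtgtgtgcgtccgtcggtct
SLC1A5: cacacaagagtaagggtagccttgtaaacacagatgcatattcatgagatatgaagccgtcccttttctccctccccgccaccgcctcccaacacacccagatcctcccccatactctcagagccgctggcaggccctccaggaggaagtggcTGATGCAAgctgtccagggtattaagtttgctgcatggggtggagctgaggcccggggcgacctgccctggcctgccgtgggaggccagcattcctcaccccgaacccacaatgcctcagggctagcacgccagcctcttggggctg
On either strand, TGATGNAA was present in 3.62% of the 35116 promoter windows and in a promoter of 4.46% of genes. Among the 39 tested stress response genes, 32 had a promoter in the table and 10 of these (31.2%) held the motif. Of the 30 that fell in both fits, 24 had a promoter and 9 held it. Here too a match describes these letters only, and ATF4 binding was not measured.

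The unfolded protein response, the related program of the endoplasmic reticulum, was lower in part. Of 25 genes tested, 9 fell and 2 rose uncorrected, and 12 fell corrected, 6 of them in both fits (medians -0.07 and -0.11). The transcription factor XBP1 had 190 and 177 CPM with veliparib, against 229 and 240 CPM with DMSO (-0.36 and -0.46). HERPUD1, a component of protein export for degradation, had 93.7 and 92.9 CPM with veliparib, against 118 and 121 CPM with DMSO (-0.35 and -0.37). Of 20 cytosolic aminoacyl-tRNA synthetases, many of them ATF4 targets, 7 fell and 2 rose uncorrected, and 6 fell and 1 rose corrected.

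**Figure D3:**
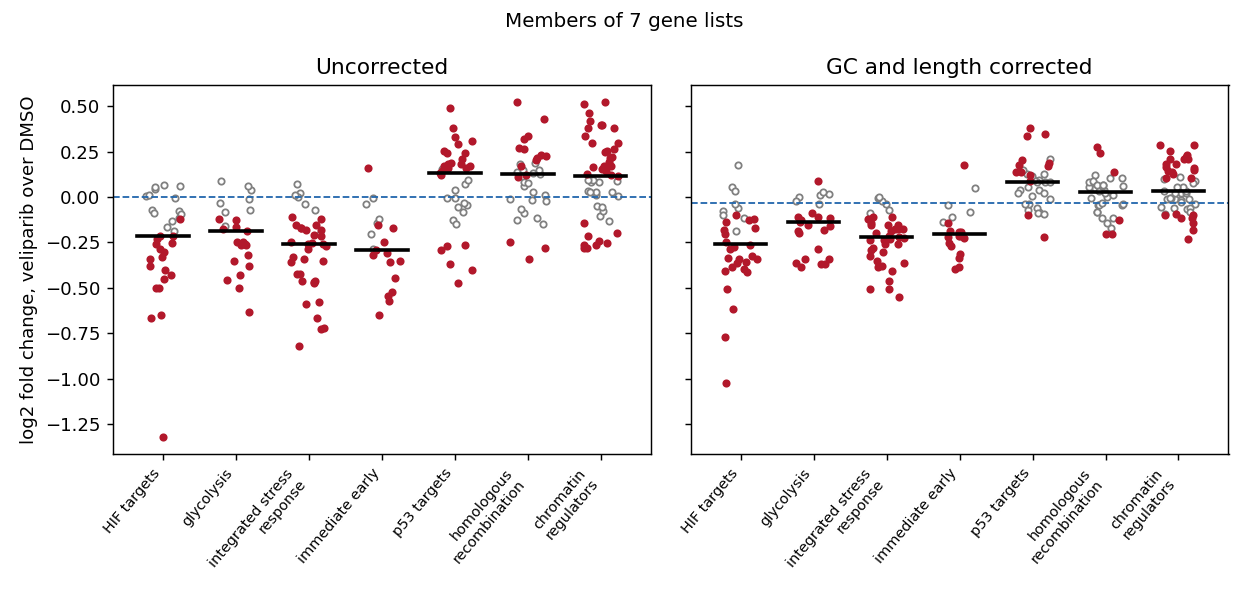
Log2 fold change of veliparib over DMSO (vertical axis) for the members of 7 gene lists, uncorrected in the left panel and after GC and length correction in the right; filled dots passed the adjusted p of 0.05, bars mark list medians and the dashed line the median of all genes. HIF targets, glycolysis, the integrated stress response and immediate early genes lie below the line in both panels, and the homologous recombination and chromatin medians move from 0.13 and 0.12 to 0.03 after correction.

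Iron storage and part of the NRF2 program were lower. FTH1, the heavy chain of ferritin, had 198 and 211 CPM with veliparib, against 339 and 344 CPM with DMSO, and no library of one group came near the other (log2 fold change -0.74, SE 0.04, limma adjusted p = 2.79e-11; -0.75 corrected, at a GC content of 50.1%). FTL, the ferritin light chain, had 301 and 317 CPM with veliparib, against 374 and 393 CPM with DMSO (-0.31 and -0.23). Sulfiredoxin SRXN1 had 9.86 and 8.6 CPM with veliparib, against 16.6 and 16.9 CPM with DMSO (-0.80 and -0.72). The NRF2 partner MAFG fell by 0.44 and 0.32. Not all NRF2 targets moved one way: of 27 tested, these 4 included, 11 fell and 2 rose uncorrected and 8 fell and 5 rose corrected (medians -0.04 and -0.06). GCLC, the catalytic subunit of glutathione synthesis, rose by 0.26 and 0.18, with an uncorrected adjusted p of 0.0522 without DMSO replicate 1. Ferritin genes have many processed pseudogenes, which the authors' counting could treat differently.

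Immediate early genes, which respond within minutes to growth signals, were lower. Of 20 tested, 13 fell and 1 rose in each fit, 12 of those that fell in both (medians -0.29 and -0.20). The list's median GC content was 54.4%. MYC had 233 and 230 CPM with veliparib, against 295 and 296 CPM with DMSO (-0.35 and -0.27). The AP-1 subunit JUND had 80.4 and 71.2 CPM with veliparib, against 119 CPM in both DMSO libraries (-0.65 and -0.19), and JUNB fell by 0.55 and 0.22. NR4A1, an orphan nuclear receptor, fell by 0.58 and 0.40 and ZFP36, which destabilises cytokine transcripts, by 0.53 and 0.38. The phosphatase DUSP1, a feedback inhibitor of MAP kinases, fell by 0.29 and 0.19. The member that rose was BTG2, which is also a p53 target (0.16 and 0.18; uncorrected adjusted p 0.125 without DMSO replicate 1).

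In a list of MYC and ribosome biogenesis genes, 14 of 37 tested rose and 7 fell uncorrected, and 11 rose and 4 fell corrected. MYC itself was among those that fell in both fits. Over all genes, 17.2% were higher and 23.2% lower uncorrected, and 7.41 and 16.9% corrected. The nucleolar phosphoprotein NOLC1 had 360 and 359 CPM with veliparib, against 298 and 299 CPM with DMSO (0.27 and 0.23). Nucleolin NCL rose by 0.19 and 0.14.

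Some p53 targets were higher by small amounts. Of 37 tested, 19 rose and 6 fell uncorrected, and 11 rose and 2 fell corrected, with 10 higher in both fits (medians 0.13 and 0.09). The uncorrected count of 19 fell to 10 without DMSO replicate 1. CDKN1A (p21), the inhibitor of cyclin-dependent kinases, had 350 and 356 CPM with veliparib, against 310 and 311 CPM with DMSO (log2 fold change 0.18, SE 0.03, limma adjusted p = 0.000194; 0.35 corrected). The death receptor FAS had 13.8 and 13.1 CPM with veliparib, against 8.47 and 10.1 CPM with DMSO (0.49 and 0.38). DDB2, a sensor of ultraviolet damage, had 44.5 and 46.9 CPM with veliparib, against 37.0 and 37.3 CPM with DMSO (0.29 and 0.34). The ubiquitin ligase MDM2, which limits p53, had 164 and 172 CPM with veliparib, against 132 and 126 CPM with DMSO (0.38 and 0.14). These 4 genes were higher in both veliparib libraries than in either DMSO library. GDF15, a secreted factor that ATF4 also drives, went the other way at 421 and 437 CPM with veliparib, against 594 and 599 CPM with DMSO (-0.47 and -0.22). TP53I3 had 6.79 and 7.51 CPM with veliparib and 7.30 and 7.47 CPM with DMSO, and its groups overlapped. The death effector BBC3 (PUMA) fell uncorrected (-0.37) and stood at 0.09 after correction, where it did not pass.

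Of 18 tested BCL2 family genes, which set the threshold for apoptosis, 9 fell uncorrected and 7 corrected, 3 of them in both fits (medians -0.17 and -0.12). Over all genes, 23.2 and 16.9% were lower. The list's median GC content was 53.5%, above that of all genes. Without BNIP3 and BNIP3L, which are also HIF targets, 8 of 16 fell uncorrected and 5 corrected. BCL2L1, a survival factor, had 127 CPM in both veliparib libraries, against 150 and 154 CPM with DMSO (-0.26 and -0.12).

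Most of the rise of DNA repair genes was no longer called after the GC and length correction. Of 36 homologous recombination and Fanconi genes, 13 rose and 3 fell uncorrected, but 3 rose and 3 fell after correction, and the median moved from 0.13 to 0.03; the list's median GC content was 41.7%. Without DMSO replicate 1 the uncorrected count of 13 fell to 6. The genes that rose in both fits were BRCA2, at 30.4 and 26.7 CPM with veliparib and 20.2 and 18.8 CPM with DMSO (0.53 and 0.27), RAD50 (0.43 and 0.24) and the kinase ATR (0.34 and 0.14). BRCA1 had 63.1 and 57.1 CPM with veliparib and 50.3 and 53.6 CPM with DMSO; its log2 fold change of 0.21 became 0.04 and no longer passed, nor did the uncorrected value without DMSO replicate 1 (adjusted p = 0.104). ATM behaved alike (0.32 and 0.06). Base excision and single-strand break repair, the pathway in which PARP1 acts, had 9 of 25 genes lower and 3 higher uncorrected and 6 lower and 2 higher corrected, where 16.9 and 7.41% of all genes were called lower and higher. Among them the glycosylase MPG, at 27.3 and 24.6 CPM with veliparib and 38.4 and 39.4 CPM with DMSO, fell by 0.57 and 0.24.

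Cell cycle genes had members called in both directions. Of 44 replication genes, 9 fell and 1 rose uncorrected and 11 fell and 4 rose corrected. Of 38 mitotic genes, 8 fell and 7 rose uncorrected and 7 fell and 3 rose corrected, near the shares over all genes. Those shares were 23.2% lower and 17.2% higher uncorrected, and 16.9 and 7.41% corrected. The replication licensing factor CDT1 had 41.1 and 45.4 CPM with veliparib, against 62.1 and 61.1 CPM with DMSO (-0.50 and -0.17). The mitotic kinase PLK1 had 85.1 and 92.2 CPM with veliparib, against 118 and 119 CPM with DMSO (-0.42 and -0.28). In the other direction, the kinetochore proteins CENPF, at 153 and 144 CPM with veliparib and 85.1 and 83.9 CPM with DMSO (0.81 and 0.59), and CENPE (0.80 and 0.60) were among the largest rises. The proliferation marker MKI67 had 53.6 and 55.7 CPM with veliparib and 39.3 and 41.0 CPM with DMSO (0.44 and 0.27). CENPF, CENPE and MKI67 have transcripts over 7000 nt, a class that was high in the veliparib libraries as described below.

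The transcripts of the drug's own targets changed little. PARP1 had 573 and 597 CPM with veliparib, against 537 and 536 CPM with DMSO (0.12 in both fits, adjusted p = 0.00806 in the uncorrected limma fit), and its uncorrected call ended without either DMSO library (adjusted p = 0.0589 and 0.0634) and in a fit of the veliparib and DMSO libraries alone (0.0554). PARP2 had 39.4 and 41.7 CPM with veliparib and 42.5 and 42.2 CPM with DMSO. A correction with GC content averaged over transcripts called it lower (-0.18, limma adjusted p = 0.00668). In the fits given here it passed in neither (-0.06 and -0.13). PARG, which removes ADP-ribose chains, had 27.3 and 26.5 CPM with veliparib and 23.7 and 24.9 CPM with DMSO, and did not pass either (0.14 and 0.04), though its uncorrected adjusted p was 0.0391 without veliparib replicate 2, and edgeR called it higher (0.0383 with TMM scaling). Of 23 ADP-ribosyltransferases and ADP-ribose removing enzymes, 7 rose and 4 fell uncorrected and 3 rose and 1 fell corrected. The antiviral protein ZC3HAV1 (PARP13) rose by 0.29 and 0.15. PARP10 and the ADP-ribose hydrolase MACROD1, with GC contents of 66.9 and 67.3%, were lower by 0.42 and 0.45 uncorrected and by 0.03 and 0.08 corrected, where they did not pass. In NAD supply, 1 of 14 genes rose and 4 fell uncorrected and 2 rose and 1 fell corrected; NAMPT, the rate-limiting enzyme of NAD salvage, had 121 and 108 CPM with veliparib and 102 and 105 CPM with DMSO and passed only uncorrected (0.14 and 0.00), with an adjusted p of 0.186 without DMSO replicate 1, 0.0524 without DMSO replicate 2, 0.277 without veliparib replicate 1 and 0.0737 in the fit of veliparib and DMSO libraries alone.

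Androgen-responsive genes were nearly level by list median. The androgen-induced kallikreins KLK3 (PSA), at 1177 and 1282 CPM with veliparib and 1429 and 1444 CPM with DMSO (-0.23 and -0.13), and KLK2, at 224 and 239 CPM with veliparib and 258 and 271 CPM with DMSO (-0.19 and -0.15), fell slightly; the uncorrected KLK2 call ended without DMSO replicate 2 (adjusted p = 0.0648). TMPRSS2 (-0.01 and 0.04) passed in neither fit, and the chaperone FKBP5 passed only uncorrected (0.18 and 0.01). Of 21 androgen-repressed genes, 6 rose and 2 fell uncorrected and 1 rose and 2 fell corrected. Over 54 androgen-induced genes, 13 rose and 11 fell uncorrected and 3 rose and 15 fell corrected, with medians of 0.05 and -0.03. Over all genes, 17.2% were higher and 23.2% lower uncorrected, and 7.41 and 16.9% corrected. After correction the calls of androgen-induced genes thus leaned lower than those of all genes.

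Among 20 luminal transcription factors and their cofactors, 9 rose and 6 fell uncorrected and 3 rose and 4 fell corrected. GATA2 had 133 and 135 CPM with veliparib, against 182 and 183 CPM with DMSO (-0.44 and -0.24), and HOXB13 had 317 and 315 CPM with veliparib, against 392 and 400 CPM with DMSO (-0.33 and -0.18). The pioneer factor FOXA1 had 298 and 275 CPM with veliparib, against 340 CPM in both DMSO libraries (-0.25 and -0.21). SPDEF fell by 0.47 and 0.15. NCOR1, a corepressor of nuclear receptors, rose by 0.35 and 0.17.

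Leaving aside structural RNAs, histones, pseudogenes and SNHG25, which the file labels as a small nucleolar RNA, many of the 14 largest rises called in both fits were long AT-rich transcripts. Some of the genes left aside rose more and are short (RN7SK, RMRP, RNA5-8SP6 and SNHG25, of 152 to 331 nt with a GC content of 52 to 63.1%), and the values of RN7SK, RMRP and SNHG25 stand with the structural RNAs. The median of the 14 in GC content was 40.1%, and 8 of them (57.1%) exceed 7000 nt, against 12.2% of all genes. GOLGB1, a coiled-coil protein of the Golgi, had 172 and 173 CPM with veliparib, against 93.3 and 91.4 CPM with DMSO (0.89 uncorrected, 0.67 corrected). The scaffold AKAP9, which anchors protein kinase A at Golgi and centrosome, had 87.0 and 93.8 CPM with veliparib, against 50.7 and 47.5 CPM with DMSO (0.87 and 0.61). The Golgi tether GOLGA4 rose by 0.81 and 0.62, the ciliary protein CEP290 by 0.70 and 0.50, and the nuclear pore basket protein TPR, at 145 CPM in both veliparib libraries and 92.3 and 89.8 CPM with DMSO, by 0.67 and 0.45.

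MAB21L3, at 8.93 and 7.62 CPM with veliparib and 4.32 and 3.47 CPM with DMSO, and the noncoding LINC01873 hardly depended on the correction (0.92 and 0.90, and 0.84 and 0.83). By the same rule, which leaves out the pseudogene UQCRFS1P1, the 14 largest falls had a median GC content of 66.8% and a median length of 1234 nt, against 48.1% and 3535 nt over all genes. Beside NDUFA4L2, CHAC1 and SRXN1 they include PCSK1N, an inhibitor of prohormone convertase, at 16.3 and 15.5 CPM with veliparib and 32.6 and 33.8 CPM with DMSO (-1.01 and -0.43). Of the genes of at least 12000 nt, 59.0% were higher and 4.78% lower uncorrected, and 21.1% higher and 25.9% lower corrected.

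Chromatin regulators, many of them encoded by long transcripts, kept part of their rise. Of 51 tested, 26 rose and 9 fell uncorrected and 18 rose and 8 fell corrected, 16 higher in both fits, while the median moved from 0.12 to 0.03; the uncorrected count of 26 fell to 16 without DMSO replicate 2. ATRX, a remodeler that deposits histone H3.3, had 171 and 172 CPM with veliparib, against 118 and 119 CPM with DMSO (0.53 and 0.29). The methyltransferase KMT2A had 53.5 and 56.9 CPM with veliparib, against 39.8 and 37.1 CPM with DMSO (0.51 and 0.29), and ASH1L rose by 0.47 and 0.25. CHD1L, a remodeler that ADP-ribose activates, rose by 0.19 and 0.16. Its call ended in a correction with GC content averaged over transcripts (0.097, limma adjusted p = 0.0815). Kinesins had 13 of 29 members higher and 3 lower uncorrected and 6 higher and 1 lower corrected. Tubulins, with a median GC content of 57.8%, had 7 of 17 lower uncorrected and 6 lower and 1 higher corrected; TUBA1B, at 278 and 318 CPM with veliparib and 364 and 355 CPM with DMSO, fell by 0.27 and 0.18. Of 439 zinc finger genes named ZNF, 141 rose and 60 fell uncorrected and 41 rose and 26 fell corrected.

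Housekeeping complexes had members called in both directions. Over all genes, 17.2% were higher and 23.2% lower uncorrected, and 7.41 and 16.9% corrected. After correction, cytosolic ribosomal proteins and oxidative phosphorylation genes exceeded the higher share by more than the lower share. Splicing factors exceeded the lower share by more, and the proteasome lay near both. Of 81 cytosolic ribosomal proteins, 33 rose and 14 fell uncorrected and 30 rose and 17 fell corrected, 24 and 9 of them in both fits. RPL26 had 457 and 499 CPM with veliparib, against 330 and 346 CPM with DMSO (0.50 and 0.39), whereas RPS2 had 2641 and 2745 CPM with veliparib, against 3422 and 3464 CPM with DMSO (-0.36 and -0.23). These genes have many processed pseudogenes, so that their counts are uncertain. Mitochondrial ribosomal proteins had 15 of 75 higher and 21 lower uncorrected and 7 higher and 18 lower corrected, and MRPL12 fell by 0.66 and 0.37. Nuclear genes of oxidative phosphorylation had 27 of 82 higher and 17 lower uncorrected and 19 higher and 17 lower corrected. Core splicing factors had 16 of 53 higher and 12 lower uncorrected and 7 higher and 18 lower corrected, and the proteasome 7 of 36 higher and 5 lower uncorrected and 2 higher and 5 lower corrected. The chaperonin HSPE1 rose, at 170 and 154 CPM with veliparib and 109 and 117 CPM with DMSO (0.51 and 0.49), within a list of 24 chaperones of which 6 rose and 7 fell uncorrected and 6 rose and 4 fell corrected.

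Lipid, interferon and lysosome genes showed small, mixed changes. In cholesterol synthesis, 4 of 25 genes rose and 7 fell uncorrected and 5 rose and 3 fell corrected. HMGCS1, an early enzyme of the pathway, had 192 and 180 CPM with veliparib and 151 and 147 CPM with DMSO (0.32 and 0.21). In fatty acid synthesis, 3 of 20 rose and 6 fell uncorrected and 1 rose and 6 fell corrected. Of 33 interferon-stimulated genes, 5 rose and 7 fell uncorrected and 1 rose and 3 fell corrected; IFITM3, a restriction factor of viral entry, fell by 0.49 and 0.41, at 38.3 and 46.7 CPM with veliparib and 62.0 and 58.0 CPM with DMSO. Of 9 NF-kB targets, 1 rose and 1 fell uncorrected and 2 rose and 1 fell corrected, and of 6 metallothionein and zinc genes 1 rose and 1 fell, uncorrected only. Limma called 0 of 4 aryl hydrocarbon receptor targets, where 1 was higher at an unadjusted p under 0.05, 1 by edgeR and 0 by DESeq2. Lysosome and autophagy genes had 11 of 29 lower and 4 higher uncorrected and 8 lower and 3 higher corrected, and cathepsin D, CTSD, had 112 and 109 CPM with veliparib, against 164 and 169 CPM with DMSO (-0.59 and -0.28).

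Structural RNAs took a larger share of reads with veliparib. The 29 listed structural RNA genes in the table took 0.0800 and 0.0865% of reads with veliparib, 0.0275 and 0.0150% with olaparib, 0.0200 and 0.0255% with UPF1069 and 0.0138% in both DMSO libraries. Counting intervals are narrow (95% Wilson interval 0.0789 to 0.0810% for veliparib replicate 1 and 0.0133 to 0.0142% for DMSO replicate 1) and cover counting error only. Nearly all of this share was 1 gene, RNA28S5: the 29 genes summed to 792.3 to 863.0 CPM with veliparib and 137.7 to 139.6 CPM with DMSO. RNA28S5, the 28S ribosomal RNA, had 743 and 805 CPM with veliparib, against 118 and 115 CPM with DMSO. RN7SL1, which forms part of the particle that targets secreted proteins, had 27.9 and 31.1 CPM with veliparib, against 4.46 and 4.53 CPM with DMSO (log2 fold change 2.47, SE 0.27); olaparib replicate 1 stood at 16.4 CPM too. Both have many near-identical copies and no GC value, so their level is uncertain and was not corrected. RN7SK, which holds the elongation factor P-TEFb inactive, had 2.32 and 2.83 CPM with veliparib, against 0.242 and 0.294 CPM with DMSO (1.49 and 1.51). RMRP, the RNA of a ribosomal RNA processing enzyme, had 1.68 and 3.40 CPM with veliparib, against 0.484 and 0.794 CPM with DMSO (1.07 and 1.19).

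Of 8 structural RNAs tested, 4 rose uncorrected, and of 6 with a GC value 2 rose and 1 fell corrected. The telomerase RNA TERC, at 0.572 and 0.642 CPM with veliparib and 0.899 and 0.824 CPM with DMSO, passed in neither fit. Beside them, the snoRNA host transcript SNHG25, which the file labels as SNORA76C, had 26.3 and 25.7 CPM with veliparib, against 9.37 and 11.1 CPM with DMSO (1.27 and 1.37). Most structural RNAs lack a poly(A) tail, and the labels name total RNA and a library kit but no step that selects or depletes RNA. The part of RNA selection or quality in the differences with veliparib was not tested. Replication-dependent histone transcripts, which also lack a tail, took 0.0793 and 0.0753% of reads with veliparib and 0.0749 and 0.0739% with DMSO; of 19 tested, 3 rose and 1 fell uncorrected and 4 rose and 2 fell corrected. Among nuclear-retained long noncoding RNAs, 12 of 21 rose and 1 fell uncorrected and 4 rose and 3 fell corrected, and MALAT1 had 1128 and 1348 CPM with veliparib, against 961 and 953 CPM with DMSO (0.37 and 0.17).

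**Figure D4:**
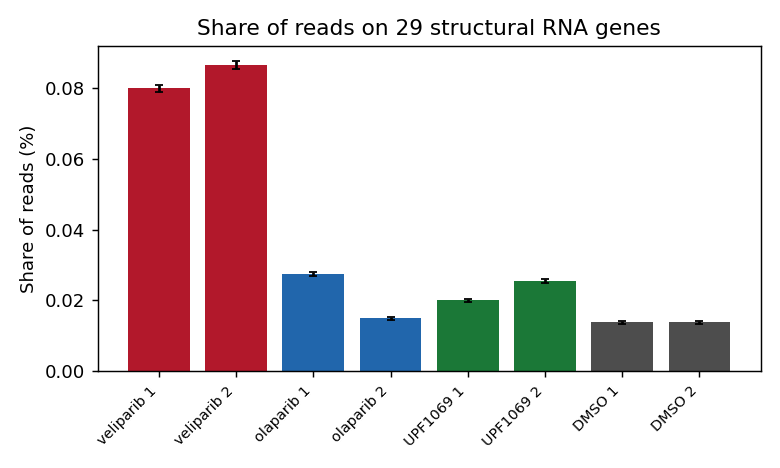
Share of all reads, in percent, on 29 structural RNA genes in each inhibitor library (bars from 0; error bars are 95% Wilson intervals for counting error). The veliparib libraries stand at 0.0800 and 0.0865%, above 0.0150 to 0.0275% with olaparib and UPF1069 and 0.0138% with DMSO.

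Direct comparison with the other compounds, all at 10 uM and 24 h, showed where veliparib differed from them. All genes were tested in 2 pairs, with p-values adjusted over all genes within each pair. Against olaparib, 3700 genes were higher (27.7%) and 4229 lower (31.7%) with veliparib, and the corrected counts were 3610 (27.6%) and 4422 (33.8%). Against UPF1069, 3324 were higher (24.9%) and 3457 lower (25.9%), with corrected counts of 2312 (17.7%) and 2891 (22.1%). These comparisons share the veliparib libraries with the comparison with DMSO.

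Against olaparib, veliparib left androgen and cell cycle genes higher. KLK2 had 224 and 239 CPM with veliparib, against 9.87 and 10.9 CPM with olaparib, and KLK3 1177 and 1282 CPM with veliparib, against 181 and 179 CPM with olaparib (log2 fold changes of veliparib over olaparib 4.36 and 2.77, limma adjusted p = 1.69e-25 and 1.61e-23). Of 54 androgen-induced genes, 46 were higher and 3 lower with veliparib than with olaparib (median 1.16, and 1.08 corrected). All 38 mitotic and 43 of 44 replication genes were higher with veliparib than with olaparib (medians 0.85 and 0.64), and MKI67 had 53.6 and 55.7 CPM with veliparib, against 12.9 and 12.8 CPM with olaparib (2.01).

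In the stress response, veliparib lay below olaparib as well as below DMSO. Of 39 genes, 34 were lower and 2 higher with veliparib than with olaparib (median -0.35, and -0.30 corrected). CHAC1 had 16 and 19.3 CPM with veliparib, against 40.6 and 41.8 CPM with olaparib (-1.19), and DDIT4 had 95.9 and 107 CPM with veliparib, against 205 and 203 CPM with olaparib (-1.01). FTH1 stood at 198 and 211 CPM with veliparib, against 458 and 481 CPM with olaparib (-1.20). HIF targets, in contrast, were split between both inhibitors, with 12 of 34 higher and 14 lower with veliparib than with olaparib: NDUFA4L2 was lower (21.6 and 21.7 against 30.3 and 29.5 CPM with olaparib; -0.45) and PLOD2 higher (7.93 and 7.96 against 5.54 and 4.68 CPM with olaparib; 0.55).

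Against UPF1069, veliparib differed in p53 targets and mitotic genes. Of 37 p53 targets, 35 were lower with veliparib than with UPF1069 in each fit (medians -0.50 and -0.54). CDKN1A had 350 and 356 CPM with veliparib, against 1492 and 1497 CPM with UPF1069 (-2.08), and TP53I3 6.79 and 7.51 CPM with veliparib, against 56.1 CPM in both UPF1069 libraries (-2.81). Of the mitotic genes, 36 of 38 were higher with veliparib than with UPF1069 (median 0.61), among them CENPE at 48.3 and 42.4 CPM with veliparib and 15.6 and 15 CPM with UPF1069 (1.51). In the stress response, 15 of 39 genes were higher and 11 lower with veliparib than with UPF1069 uncorrected, and 19 were higher and 7 lower corrected (medians 0.00 and 0.09).

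For some stress genes no difference from UPF1069 was seen without correction. CHAC1 had 19.0 and 17.2 CPM with UPF1069 (veliparib over UPF1069 -0.04, 95% confidence interval -0.19 to 0.11), and SLC7A5 8.83 and 9.36 CPM with UPF1069 (0.00, interval -0.16 to 0.16). PLOD2 had 8.26 and 7.64 CPM with UPF1069 (0.00, interval -0.18 to 0.18). These intervals leave room for differences of that size. After correction CHAC1 and SLC7A5 were both higher by 0.24 with veliparib than with UPF1069 and passed (limma adjusted p = 0.00273 and 0.0154), while PLOD2 did not (-0.18, adjusted p = 0.109). Androgen targets were close too: KLK3 had 1264 and 1250 CPM with UPF1069 (-0.03, interval -0.12 to 0.05). Without veliparib replicate 2, KLK3 and CHAC1 were called lower than with UPF1069 (-0.10 and -0.17, adjusted p = 0.00294 and 0.0195). NDUFA4L2, in contrast, was lower with veliparib than with UPF1069, at 43.1 and 42.0 CPM (-0.94 uncorrected, -0.62 corrected), and so was FTH1, at 374 and 380 CPM (-0.88 in both fits).

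**Figure D5:**
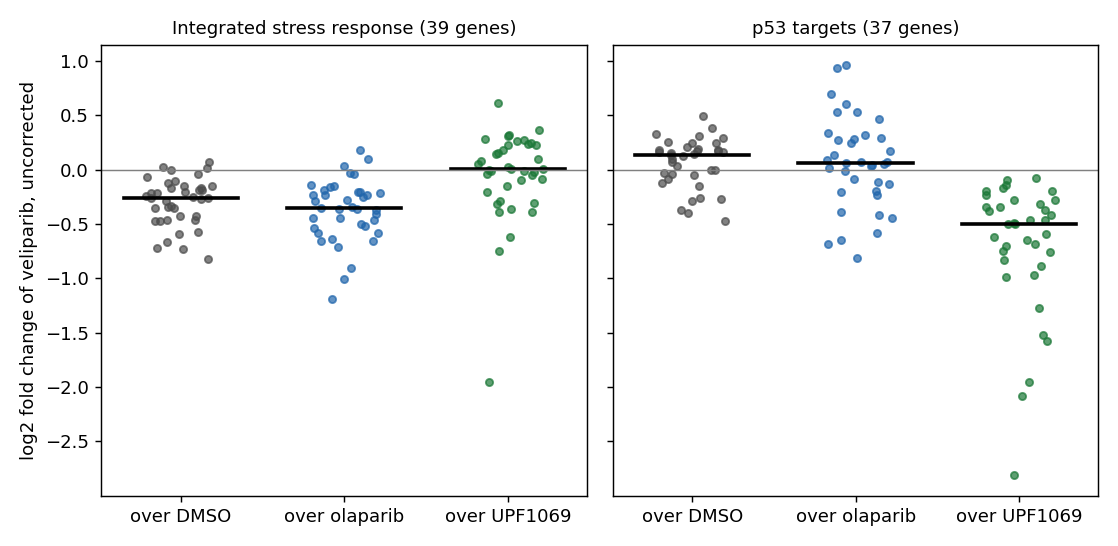
Log2 fold change of veliparib over DMSO, over olaparib and over UPF1069 (horizontal axis), uncorrected, for 39 integrated stress response genes and 37 p53 targets, 1 dot per gene with the list median as a bar. Stress response medians are -0.26, -0.35 and 0.00, and p53 target medians are 0.13, 0.06 and -0.50.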

How the data were processed

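Per the labels' protocols, total RNA came from a Qiagen RNeasy column and went into the NEBNext Ultra library kit. For the upstream steps, the submitters' processing notes list TopHat2 (2.1.0), HTSeq (0.6.1), bcl2fastq (2.18) and edgeR (3.12.0), in no stated role, and genome build hg19. The deposited table holds CPM, the reads of each gene scaled by the authors to a common total; 2 libraries of each of 4 groups were used and assigned by column name and title. Limma 3.58.1 (R 4.3.3) was fitted to log2(CPM + 1) over all 8 inhibitor libraries, keeping genes whose mean reached 1, with 2-sided tests, Benjamini-Hochberg adjustment and a threshold of 0.05; fold changes on this scale understate those of low genes. Each library's trend over GC content and log10 length of the longest GENCODE transcript (natural splines, 4 df each) was removed for the corrected fit, possible for 98% of the genes tested. Whole reads were recovered from the CPM steps (100% of values within 0.01 of a whole number), and edgeR 4.0.16 on them called 2665 genes higher and 2805 lower than DMSO; DESeq2 1.42.0 was a further alternative. The code was tested on simulated data. The file gives structural RNA symbols to 25 gene IDs that GENCODE classes as other gene types. These took the name of their own ID, or the ID where it has no name.

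The members and the 47 gene lists were chosen with earlier results of these data known. Named genes are the 14 largest rises and falls called in both fits whose mean log2 value reached 1 and whose groups did not overlap (structural RNAs, among them SNHG25 by its label in the file, histones and pseudogenes left out), 8 structural RNAs, up to 5 called members of each list with the largest change, calls that end after correction, and a set always reported, such as PARP1, CDKN1A and ATF4. The genes BCL2L1, BTG2, CHD1L, DDB2, DUSP1, EGLN1, EGLN3, GAPDH, GCLC, JDP2, KDM3A, NCL, P4HA1, PDK1, PGK1, SLC1A5, SLC3A2, SLC6A9, SLC7A11, SNHG25 and TRIB3 were chosen after their values were seen. Promoter sequences are from RefSeq GRCh38.p14. Alternatives tried were another pseudocount, filter, normalization and test, a fit of the 2 groups alone, each library left out, a replicate block, other GC values and structural RNAs left out of totals. Some genes are not reported here.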

Additional observations from a re-analysis of the deposited data

How the results depend on the processing

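The GC and length correction moved 42 of 74 smaller list counts by over 1.5 times, and leaving out DMSO replicate 1 moved 34. Genes higher with veliparib than with DMSO numbered 969 after it, 994 with a replicate block added and 990 with GC content averaged over transcripts, the last chosen after seeing the data, against 2291 without it. Higher p53 targets numbered 11 with the correction, 11 with the block added and 14 with the averaged GC content, against 19, and higher homologous recombination genes 3, 3 and 4, against 13. With the correction, and also with the block added, BBC3 stood at 0.093, GAPDH at 0.013, KDM3A at -0.182 and CHAC1 over UPF1069 at 0.241. With the averaged GC content, BBC3 stood at -0.052 and GAPDH at -0.019, and neither passed (limma adjusted p = 0.68 and 0.748). The cause was not tested. Replicate numbers do not pair the libraries (correlations of deviations from -0.0598 to 0.0297), and the block without correction called 2191 genes higher and 3033 lower.

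Leaving out 1 library at a time gave 1269 (without DMSO replicate 1) to 3195 genes higher, and 2291 to 3585 lower. The ranges were 10 to 21 for higher p53 targets, 6 to 16 for higher repair genes, 16 to 30 for higher chromatin genes, 17 to 23 for lower HIF targets, 15 to 20 for lower glycolysis genes, 27 to 32 for lower stress response genes and 10 to 14 for lower immediate early genes. With structural RNAs found by name pattern, their share was 0.0845 and 0.0909% with veliparib and 0.0170 and 0.0172% with DMSO. Other settings kept the counts of higher and lower genes within 1.5 times. Depth limits statements on genes near 1 CPM.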
